A study of Homo sapiens with 10 samples.

Results

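The genes described here are 37 genes of hereditary ataxias and repeat expansion diseases, taken from a list of gene names and found by symbol among 59084 RefSeq genes on chromosomes 1 to 22 and X. Of the 37, 36 are protein-coding, among 19974 protein-coding genes, and ATXN8OS is a noncoding RNA gene. For each gene, with 1 kb added at both ends, the percent of its length under DRIP-seq peaks was measured, together with the distance of the peaks from the gene start and end. DRIP-seq pulls down RNA-DNA hybrids with the S9.6 antibody and sequences the DNA that comes with them. The cells were U2OS, a human osteosarcoma line. They carried TDP1 H493R, the change behind spinocerebellar ataxia with axonal neuropathy (SCAN1), or were wild type (WT).

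The SCAN1 libraries were SCAN1#1 replicate 1, SCAN1#1 replicate 2 and SCAN1#2 replicate 2, and the WT libraries were WT replicate 1 and WT replicate 2. Both genotypes share the U2OS background, nuclei that were not crosslinked, sonication of the nucleic acids and RNase H treatment of the pulled-down material during library preparation. The replicate number is the number of the experiment, and per the labels the antibody lots were not the same in the 2 experiments. One line gave 2 of the 3 SCAN1 libraries. The labels say neither whether each SCAN1 line grew from a single cell nor whether replicates were separate cultures, so the p-values reflect the spread among these libraries alone. The design asks whether RNA-DNA hybrids differ between SCAN1 and WT cells.

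The deposited lists held 63456 to 110745 peaks. The sequencing depth behind them is unknown. So that the lists could be set side by side, each was cut to its 63456 peaks of highest -log10 p, as many as the shortest list holds, and values for the lists as deposited are given for some genes, since coverage under the longer lists can only be equal or higher. Of 10 osteoblast and mesenchymal marker genes, 8 had a peak in all 5 libraries, led by LGALS1, and COL1A2 had none in any library. The 3 liver markers had no peak in any library, nor had 3 of 4 blood markers, and 3 of 7 neuronal markers had a peak in all 5 libraries. A peak marks DNA pulled down with the S9.6 antibody and not the level of a transcript.

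RNA-DNA hybrids form where a new transcript pairs with its template strand and leaves the other DNA strand single, a structure called an R-loop. Repeats such as CAG, CTG, CGG and GGGGCC are prone to form them in model systems, and expanded repeats in these genes cause Huntington disease, spinocerebellar ataxias, myotonic dystrophies, fragile X syndrome, recessive ataxias and C9orf72 disease. TDP1 removes trapped topoisomerase 1 from DNA ends, and its mutation in SCAN1 causes ataxia and neuropathy. The peak lists do not measure repeat length.

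Repeat runs of the reference genome are shown first, because they are where the disease repeat itself can be set against the peaks. Windows of 300 bases around the RefSeq starts (250 bases before to 50 after, GRCh38.p14) were searched in 19 genes for at least 3 copies in a row of each gene's own disease repeat on the strand of the gene, and 4 genes held such a run. Repeats that lie outside these windows, such as those of HTT and DMPK, were not searched. The repeat genes ATN1, ATXN2, ATXN3, JPH3, CSTB and ATXN8OS had no such window, so theirs were not searched either. The repeat units to search and the stretches to print were chosen after values were seen. Each stretch below has 30 bases, 5′ to 3′ on the strand of the gene, with the run in capitals. The coordinates are those of the run.

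PABPN1, chr14:23321472-23321492, plus strand: cgatGGCGGCGGCGGCGGCGGCGGCagcag
DIP2B, chr12:50505004-50505024, plus strand: atggCGGCGGCGGCGGCGGCGGCGGtgctg
C9orf72, chr9:27573529-27573546, minus strand: gcgctaGGGGCCGGGGCCGGGGCCggggcg
PPP2R2B, chr5:146878729-146878758, minus strand: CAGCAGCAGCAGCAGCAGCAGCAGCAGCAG

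The run in PABPN1 is marked as 7 copies of GGC, a shifted reading of the disease unit GCG. Its capitals are therefore not set in the frame of the alanine codons. The gene encodes a nuclear poly(A)-binding protein with an alanine stretch, and the run lay under a peak in all 5 libraries. The run of 7 copies in DIP2B, a gene at a fragile site of chromosome 12, lay under no peak. Its nearest peak began 120, 101 and 112 bases downstream in SCAN1#1 replicate 1, SCAN1#1 replicate 2 and SCAN1#2 replicate 2, and 2526 bases upstream and 65 bases downstream in WT replicates 1 and 2. The 3 copies in C9orf72, the most common genetic cause of amyotrophic lateral sclerosis and frontotemporal dementia when expanded, also lay under no peak in any library. The nearest peak began 173, 138 and 149 bases downstream in the SCAN1 libraries and 151 and 182 bases downstream in the WT libraries, in the same order, so the peak stood close beside the run in every library of both genotypes. The run of 10 copies in PPP2R2B, a regulatory subunit of a protein phosphatase expressed mainly in brain, was 39843 to 70936 bases from the nearest peak in the SCAN1 libraries, against 33504 and 33427 bases in the WT libraries. With the lists as deposited the run in PABPN1 stayed the only 1 of these 4 under a peak, and the nearest peak to the run in PPP2R2B was 2213 bases away in SCAN1#1 replicate 2.

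**Figure D1:**
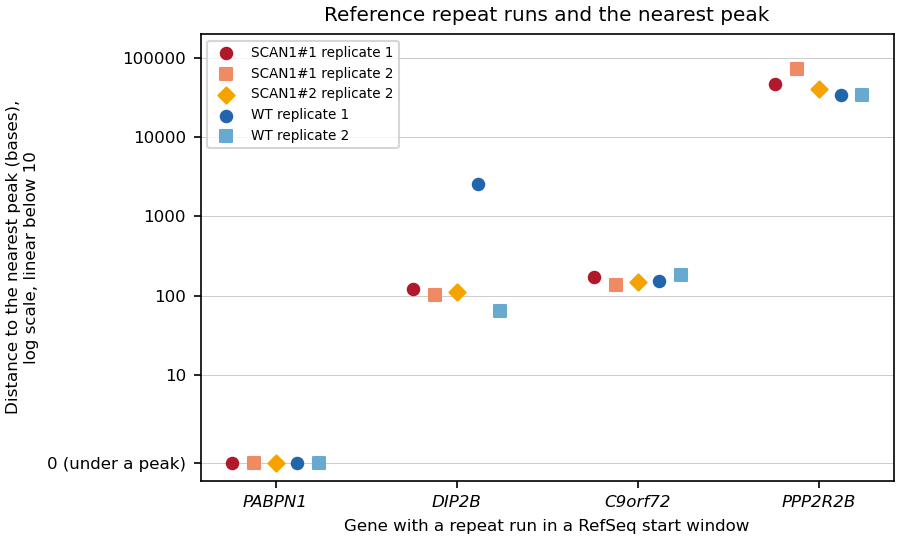
Distance in bases from each reference repeat run to the nearest peak (log scale, linear below 10) for PABPN1, DIP2B, C9orf72 and PPP2R2B, with 1 point per library, SCAN1 libraries left of WT libraries. Points at 0 lie under a peak, which holds only for PABPN1, and the points of C9orf72 sit between 138 and 182 bases in all 5 libraries.

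Next come 4 stretches of 250 bases upstream of a gene start, from RefSeq on GRCh38.p14, chosen after values were seen. ATXN7 has the strongest peak of the set at its start in 3 of the 5 libraries, CNBP has a peak over its start in every library, AFG3L2 has next to its start the only region with peaks in the 3 SCAN1 libraries and not in WT, and FMR1 has no peak at its start in any library. Capitals mark GGGGCC, or GGCCCC on the opposite strand, the unit of the C9orf72 repeat.

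ATXN7, chr3:63862894-63863143, plus strand: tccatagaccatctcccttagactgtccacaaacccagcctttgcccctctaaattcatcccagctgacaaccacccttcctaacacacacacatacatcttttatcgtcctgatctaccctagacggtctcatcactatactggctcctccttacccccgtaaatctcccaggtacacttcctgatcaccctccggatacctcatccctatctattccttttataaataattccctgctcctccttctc
CNBP, chr3:129183897-129184146, minus strand: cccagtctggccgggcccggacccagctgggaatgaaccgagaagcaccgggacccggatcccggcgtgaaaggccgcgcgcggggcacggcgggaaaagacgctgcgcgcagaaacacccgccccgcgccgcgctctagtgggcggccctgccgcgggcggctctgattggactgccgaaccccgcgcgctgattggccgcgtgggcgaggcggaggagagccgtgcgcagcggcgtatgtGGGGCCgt
AFG3L2, chr18:12377228-12377477, minus strand: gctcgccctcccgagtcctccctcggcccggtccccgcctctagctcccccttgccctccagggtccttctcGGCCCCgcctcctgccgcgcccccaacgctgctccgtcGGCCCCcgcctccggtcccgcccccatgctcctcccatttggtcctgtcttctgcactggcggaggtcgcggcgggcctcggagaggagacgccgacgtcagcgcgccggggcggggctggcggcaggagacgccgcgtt
FMR1, chrX:147911669-147911918, plus strand: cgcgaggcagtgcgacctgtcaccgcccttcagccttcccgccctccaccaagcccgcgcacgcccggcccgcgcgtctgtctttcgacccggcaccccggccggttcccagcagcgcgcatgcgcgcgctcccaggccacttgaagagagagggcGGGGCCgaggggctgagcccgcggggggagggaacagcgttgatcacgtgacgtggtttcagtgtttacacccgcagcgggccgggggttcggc

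The stretch of CNBP is 74.4% G and C, that of AFG3L2 76.0% and that of FMR1 72.4%, while that of ATXN7 is 47.6%. These 4 do not stand for the rest. The summit of the ATXN7 peak lay upstream of its stretch in the SCAN1 libraries, -347, -313 and -316 bases from the start. It lay at -309 bases in WT replicate 2, and within the stretch, at -223, in WT replicate 1. The start windows of ATXN7 723, 1390 and 48968 bases further in were 77.3%, 73% and 73% G and C. Each held GGGGCC, with a peak in 4, 5 and 4 libraries. Those 35255 and 104650 bases in were 31.3% and 36%, with no GGGGCC and no peak in any library. The median GC content was 66.5% in the 10 start windows of the listed genes with a peak in all 5 libraries and 61.3% in the 28 with none, and over all protein-coding genes it was 66.0% and 60%. Over all 47 start windows of the genes with an entry, 10 had a peak in all 5 libraries (21.3%, against 11.1% of 22132 windows of protein-coding genes) and 28 had none (59.6%, against 70.5%). GGGGCC, searched on both strands, was found in 51.1% of the 47 windows and in 42.1% of all windows. CGGCGGCGG was found in 17.02% (8 windows) and 8.09%, and CAGCAGCAG in 4.26% (2 windows) and 2.01%, in the same order, both also searched on both strands. Many of the listed genes were chosen for disease repeats, and some matches are the printed runs themselves. That holds for CAGCAGCAG in PPP2R2B, CGGCGGCGG in PABPN1 and DIP2B, and GGGGCC in C9orf72. The shares of the listed genes are therefore partly set by how the list was made. Matches of different motifs may share bases at their ends. The median GC content was 64.7% in the 47 windows and 62.3% in all windows. Among the 10 windows with a peak in all 5 libraries, 4 held GGGGCC, and among the 28 with none, 13 held it. Over all windows the shares were 51.1% of those with a peak in all 5 libraries and 38.7% of those with none. A match is a run of letters and not a mapped binding or hybrid site.

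Of the 37 genes, 26 had a peak in all 5 libraries, 8 in some libraries and 3 in none. Among the 36 protein-coding genes, 72.2% had a peak in all 5 libraries, against 47.9% of all protein-coding genes, and 5.56% had no peak, against 22.8%. These shares were not adjusted for gene length. Over all protein-coding genes the share with a peak in all 5 libraries rose with length. It was 31.5% under 10 kb and 71.3% from 200 kb upward, where 72.7% of the listed genes had one. In each shorter class the listed genes stood further above all genes. The share of listed genes with no peak was above the 18.7% of all genes from 10 to 50 kb, and below all genes in the other classes. Coverage spread over a wide range, with a mean over the 5 libraries of 0% to 88.5% and a median of 1.42% over the 37 genes. NOP56, STUB1, PABPN1, ATN1 and DMPK were covered over more than 60% of their length in every library, and CNBP, CSTB and AFG3L2 had means of 20.4%, 18.5% and 16.8%. No other gene reached a mean of 10%.

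**Figure D2:**
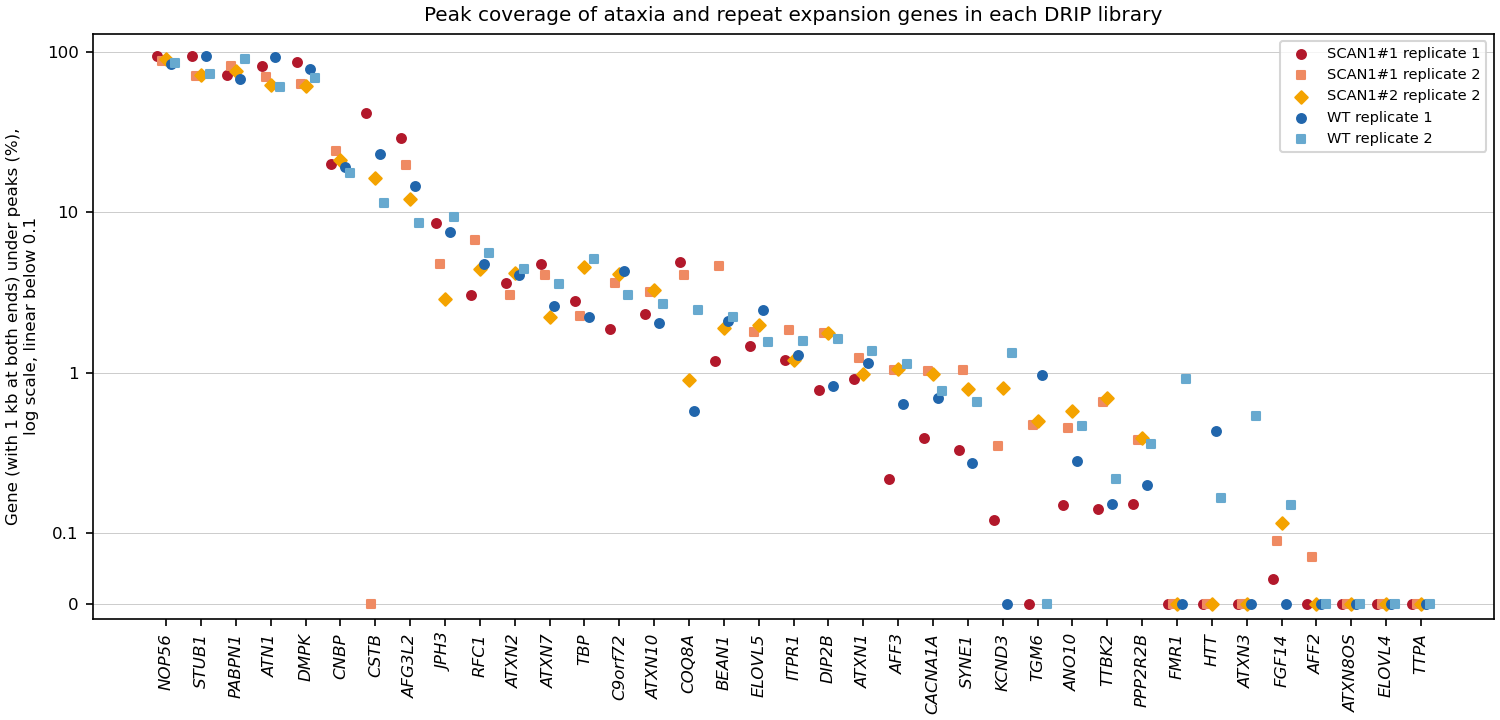
Percent of each of the 37 genes (1 kb added at both ends) under peaks, with 1 point per library (log scale, linear below 0.1), genes ordered by mean and SCAN1 libraries left of WT libraries. The 5 genes on the left lie above 60% in every library and ATXN8OS, ELOVL4 and TTPA on the right lie at 0 in every library.

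Medians were compared within classes of gene length. In genes under 10 kb, the median of the 4 listed genes was 79.4%, against 1.13% over 5658 protein-coding genes of that length. From 10 to 50 kb it was 3.39% (10 genes) against 2.38% (8058 genes), from 50 to 200 kb 2.41% (11 genes) against 1.02% (4862 genes), and from 200 kb upward 0.618% (11 genes) against 0.472% (1396 genes). The mean coverage of ATN1 was above that of 99.4% of the protein-coding genes in its length class, that of DMPK above 99.3%, NOP56 above 97.6%, STUB1 above 95.8% and PABPN1 above 94.9%. At the other end, the mean coverage of FMR1 was above that of 20.4% of its class, HTT above 13.7%, ATXN3 above 13.1%, FGF14 above 10.0% and AFF2 above 3.72%. These shares are descriptions of a list chosen by disease and carry no test.

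**Figure D3:**
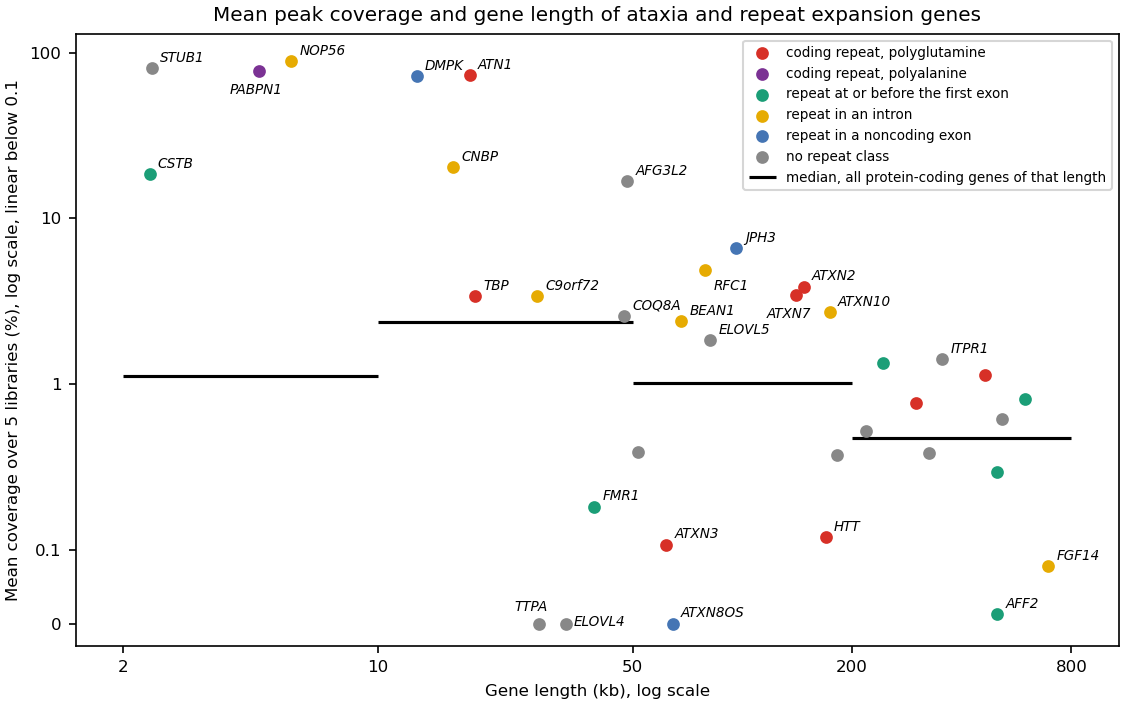
Mean coverage over the 5 libraries (percent, log scale, linear below 0.1) against gene length (kb, log scale) for the 37 genes, coloured by kind of repeat, with black lines for the median of all protein-coding genes in each length class. Short genes such as NOP56 and STUB1 lie far above the line at 1.13%, and HTT, ATXN3 and FMR1 lie below theirs.

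The 8 genes with a coding CAG repeat, which encodes glutamine, held both ends of this range. Of these, 6 had a peak in all 5 libraries, and HTT and ATXN3 did not. ATN1, a transcriptional corepressor (chromosome 12, 6924459 to 6942321), was covered over 81.4%, 69.8% and 62.4% in SCAN1#1 replicate 1, SCAN1#1 replicate 2 and SCAN1#2 replicate 2, against 93.3% and 60.5% in WT replicates 1 and 2. The WT values lie on both sides of the SCAN1 values. The 2 regions with a peak in all 5 libraries, 5799 and 15374 bases wide, run over the gene and onward over C12orf57 and RNU7-1. The peak lists carry no strand, so hybrids of overlapping or neighbouring genes cannot be told apart.

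ATXN7, a subunit of the SAGA chromatin complex (chromosome 3, 63863144 to 64003462), had coverage of only 4.76%, 4.06% and 2.23% in the SCAN1 libraries, against 2.61% and 3.57% in the WT libraries. Its top peak ranked above those of the other 36 genes by -log10 p in SCAN1#1 replicate 2, SCAN1#2 replicate 2 and WT replicate 2. In SCAN1#1 replicate 1 and WT replicate 1 the top peak of STUB1 ranked first. The summit of the ATXN7 peak lay upstream of the gene start, at -347, -313 and -316 bases from it in the SCAN1 libraries and -223 and -309 bases in the WT libraries. Within each list this peak stood among the top 0.39% to 1.05%, with the authors' fold enrichment over background at 23.9, 56.9 and 48.0 in the SCAN1 libraries and 20.1 and 39.4 in the WT libraries. These fold enrichments are the authors' own values and place a peak within its list only. The region runs over 4661 bases and also over THOC7, an mRNA export gene, and its antisense RNA.

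ATXN2, an RNA-binding protein of stress granules, had coverage of 3.62%, 3.08% and 4.19% in the SCAN1 libraries, against 4.08% and 4.44% in the WT libraries. It held 5 regions with a peak in all 5 libraries, each 679 to 1679 bases wide, of which 4 lay toward its higher-coordinate end. TBP, the TATA-binding protein, had coverage of 2.82%, 2.26% and 4.59% in the SCAN1 libraries, against 2.23% and 5.13% in the WT libraries. It had no peak within 1 kb of its start or end in any library. The peak of TBP that all libraries share lay inside the gene, with its summit 14219, 14303 and 14343 bases from the start in the SCAN1 libraries and 14296 and 14367 bases in the WT libraries.

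ATXN1, a transcriptional corepressor, and CACNA1A, a neuronal calcium channel, had means of 1.13% and 0.773%, and ATXN1 had a peak at its start in all 5 libraries. HTT, the Huntington disease gene, had no peak in any SCAN1 library and was covered over 0.43% and 0.17% in WT replicates 1 and 2. That difference did not hold in the lists as deposited, where HTT had 3 peaks in SCAN1#1 replicate 2 and 2 in SCAN1#2 replicate 2, against 3 and 1 in the WT libraries. ATXN3, a deubiquitinase, had 1 peak, in WT replicate 2, and in the lists as deposited also 1 in SCAN1#2 replicate 2 and 2 in WT replicate 1. PABPN1 (chromosome 14, 23321457 to 23326163), the gene with a coding alanine repeat, had coverage of 72%, 82.1% and 76.3% in the SCAN1 libraries, against 68.2% and 91.1% in the WT libraries. Its strongest peak had its summit 245 to 589 bases past the start in the SCAN1 libraries and 290 and 315 bases past it in the WT libraries, downstream of the repeat run in all 5 libraries. Both of its shared regions also cover the readthrough gene BCL2L2-PABPN1.

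Of the 6 genes with a repeat at or before the first exon, 3 had a peak in all 5 libraries, and none of the 5 with a known strand had a peak at the start in all 5. The start is here the outer boundary of the gene, which need not be the start beside the repeat. In PPP2R2B the RefSeq start with the printed run lies 202763 bases from that boundary, and its window had no peak in any library. CSTB, a protease inhibitor whose promoter repeat causes a myoclonic epilepsy (chromosome 21, 43773950 to 43776308), was covered over 41.6%, 0% and 16.5% in SCAN1#1 replicate 1, SCAN1#1 replicate 2 and SCAN1#2 replicate 2, against 23.1% and 11.4% in the WT libraries. The value of 0% in SCAN1#1 replicate 2 came from the equal length of the lists, since that library covered 43.1% as deposited. A region of 1008 bases beyond the higher-coordinate end of CSTB had a peak in the other 4 libraries. DIP2B had a mean of 1.35%, and a peak within 1 kb of its start in 4 libraries, all but WT replicate 1. FMR1, the fragile X gene, had a single peak, in WT replicate 2, with its summit 4667 bases past the start, and 2 in SCAN1#1 replicate 2 in the list as deposited. AFF2 had 1 peak, in SCAN1#1 replicate 2. AFF3 and PPP2R2B had means of 0.819% and 0.297%, with no peak at the start of either in any library.

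Most of the 7 genes with a repeat in an intron had peaks at their starts. Of the 7, C9orf72, CNBP, NOP56, ATXN10 and RFC1 had a peak within 1 kb of the start in all 5 libraries (5 genes), and BEAN1 and FGF14 had one in 1 and 2 libraries. NOP56, a core protein of the box C/D small nucleolar ribonucleoproteins whose introns hold several small RNA genes (chromosome 20, 2652632 to 2658393), had coverage of 94.3%, 88.2% and 90.1% in the SCAN1 libraries, against 84.3% and 85.8% in the WT libraries. All 3 SCAN1 values lay above both WT values. A region of 9450 bases with a peak in all 5 libraries ran over the gene, over the small RNA genes MIR1292, SNORD110, SNORA51, SNORD86, SNORD56 and SNORD57, and onward into IDH3B.

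CNBP, a nucleic-acid-binding zinc finger protein (chromosome 3, 129167827 to 129183896), had coverage of 20.02%, 24.3% and 21.1% in the SCAN1 libraries, against 19.2% and 17.5% in the WT libraries. The SCAN1 values again lay above the WT values, by less than 1 percentage point at the nearest pair. As deposited they overlap, at 20.02%, 24.3% and 21.1% in the SCAN1 libraries, against 20.8% and 22.2% in the WT libraries. Its strongest peak had its summit 464 to 552 bases past the start in the SCAN1 libraries and 498 and 554 bases past it in the WT libraries. A second shared region of 1145 bases lay near the end of the gene. RFC1, the large subunit of the replication clamp loader, had coverage of 3.07%, 6.75% and 4.43% in the SCAN1 libraries, against 4.74% and 5.57% in the WT libraries, with summits 224 to 291 bases past the start in the SCAN1 libraries and 289 and 267 bases past it in the WT libraries.

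C9orf72 had coverage of 1.86%, 3.61% and 4.12% in the SCAN1 libraries, against 4.28% and 3.05% in the WT libraries. Its strongest peak had its summit 808, 846 and 847 bases past the outer gene start in the SCAN1 libraries and 717 and 828 bases past it in the WT libraries, on the gene side of the repeat run printed above. ATXN10 had coverage of 2.33%, 3.19% and 3.29% in the SCAN1 libraries, against 2.05% and 2.70% in the WT libraries. BEAN1, a brain-expressed gene, had coverage of 1.18%, 4.60% and 1.89% in the SCAN1 libraries, against 2.11% and 2.24% in the WT libraries. FGF14, a regulator of neuronal sodium channels and the longest gene of the set at 691.6 kb, had a mean of 0.078%. In these 4 genes the SCAN1 and WT values overlap.

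Of the 3 genes with a CTG repeat in a noncoding exon, DMPK and JPH3 had a peak in all 5 libraries and ATXN8OS had none in any, also as deposited. DMPK, a protein kinase of muscle and other tissues (chromosome 19, 45769717 to 45782490), had coverage of 87.1%, 63.4% and 61.5% in the SCAN1 libraries, against 78.6% and 68.9% in the WT libraries. Both of its ends had a peak in all 5 libraries. The region at its end, where the repeat lies in the last exon, spans 12734 bases and runs on over SIX5 and DM1-AS, and the region at its start runs over DMWD. JPH3, a junctophilin expressed mainly in brain, had coverage of 8.60%, 4.73% and 2.87% in the SCAN1 libraries, against 7.53% and 9.39% in the WT libraries. A region of 6430 bases toward the higher-coordinate end of JPH3, which also covers LOC100129215, had a peak in all 5 libraries.

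Of the 12 ataxia genes listed with no repeat expansion, 8 had a peak in all 5 libraries and ELOVL4, a fatty acid elongase, and TTPA, the liver transfer protein of vitamin E, had none in any, also as deposited. STUB1, a ubiquitin ligase that works with heat shock chaperones (chromosome 16, 680410 to 682801), had coverage of 94.6%, 71.1% and 71.9% in the SCAN1 libraries, against 93.8% and 73.0% in the WT libraries. In both genotypes the library of experiment 1 was the higher one. The shared region of 11073 bases runs on over JMJD8 and WDR24.

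AFG3L2, a subunit of a protease of the inner mitochondrial membrane (chromosome 18, 12328944 to 12377227), had coverage of 29.1%, 19.7% and 12.1% in the SCAN1 libraries, against 14.6% and 8.63% in the WT libraries. The lowest SCAN1 value lay between the WT values, so the groups overlap. Minus WT of the same experiment, the difference was 14.5 percentage points for SCAN1#1 in experiment 1, and 11.1 for SCAN1#1 and 3.52 for SCAN1#2 in experiment 2, which share WT replicate 2. With the experiment as a block, limma gave 10.4 ± 4.06 (unadjusted p = 0.0601, adjusted p = 0.751). With 1 kb added at both ends, AFG3L2 met 17 separate regions, 6 of them with a peak in all 5 libraries. Of these 6, 1 region of 5470 bases lies beyond the gene end and over TUBB6. Its peaks came within 1 kb of the gene end only in SCAN1#1 replicate 1 and WT replicate 1. The region from 12377348 to 12378224, 877 bases wide and just upstream of the start, overlaps part of the stretch printed above. In the 300-base window around the start, SCAN1#1 replicate 2 and SCAN1#2 replicate 2 had a peak and SCAN1#1 replicate 1 had none. Each of the 3 SCAN1 libraries had a peak in the region as a whole, and neither WT library did. In the lists as deposited WT replicate 2 had a peak in this region too. Within 1 kb of the start on either side, 4 libraries had a peak in the lists of equal length, all but WT replicate 1.

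COQ8A, an enzyme of coenzyme Q synthesis, had coverage of 4.90%, 4.05% and 0.90% in the SCAN1 libraries, against 0.58% and 2.46% in the WT libraries. ELOVL5 and ITPR1, an elongase and a calcium channel of the endoplasmic reticulum, had a peak at the start in all 5 libraries with means of 1.85% and 1.42%. The strongest peak of ITPR1 lay far from that start, with its summit 337692 to 337752 bases into the gene in the SCAN1 libraries and 337711 and 337706 bases into it in the WT libraries. SYNE1, a nuclear envelope protein, had 1 region with a peak in all 5 libraries, centred 497662 bases from its start. ANO10, KCND3, TGM6 and TTBK2 had means of 0.373% to 0.521%.

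Peaks were more common at starts than at ends. Among the 28 genes with a known strand, 11 had a peak within 1 kb of the start in all 5 libraries (39.3%, against 22.5% of 15813 protein-coding genes with a known strand), 11 had none there in any library and 6 had one in some. At the end, 4 had a peak in all 5 libraries (14.3%, against 10.0%). These 4 were NOP56, PABPN1, DMPK and CNBP, which also had one at the start. The windows of 1 kb on either side of the start were covered over 28.2%, 28.5% and 30.2% in the SCAN1 libraries, against 25.4% and 23.9% in the WT libraries. Over all protein-coding genes these values were 15.0%, 15.0% and 15.0% in the SCAN1 libraries, against 14.6% and 12.7% in the WT libraries, so all 3 SCAN1 values lay above both WT values in the listed genes and in all genes. Around the end the groups overlap in the listed genes. Windows there were covered over 11.8%, 12.4% and 11.03% in the SCAN1 libraries, against 11.4% and 10.5% in the WT libraries. The groups also overlap in the rest of the gene, at 0.973%, 1.31% and 1.04% against 0.893% and 1.18%, in the same order. There each library lay below its value over all protein-coding genes, 1.98%, 1.94% and 1.63% against 1.95% and 1.81%. These values over windows were not tested.

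**Figure D4:**
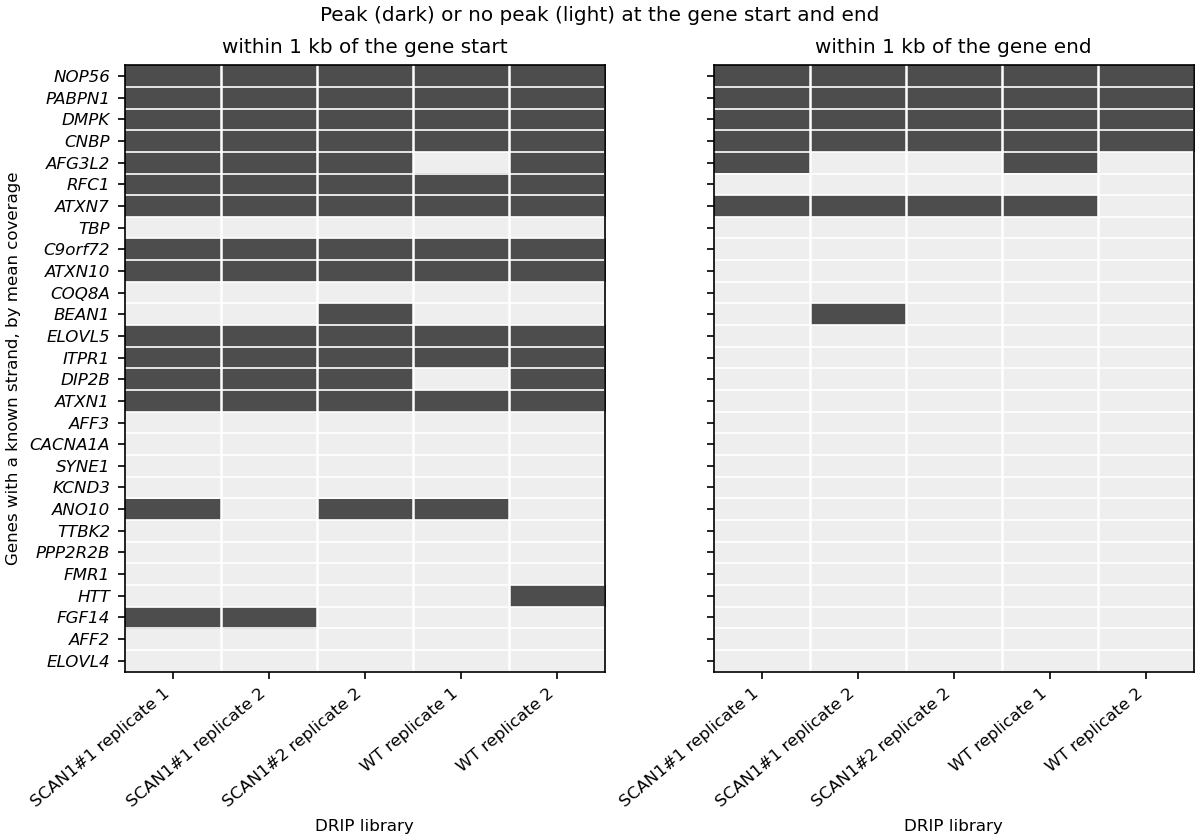
Presence (dark) or absence (light) of a peak within 1 kb of the start (left) and the end (right) of the 28 genes with a known strand, with 1 column per DRIP library and genes ordered by mean coverage. At the start 11 rows are dark in all 5 libraries, and at the end 4.

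A split by known tissue range went with these counts. Of the 25 genes known to be broadly expressed, 21 had a peak in all 5 libraries and the median coverage was 3.38%. Of the 12 known mainly from brain or another restricted tissue, 5 had a peak in all 5 libraries, 3 had none, and the median was 0.343%. All 11 genes with a start peak in every library were among the 20 broadly expressed genes with a known strand, and none was among the 8 restricted ones. The restricted genes were also longer, with a median length of 157.7 kb against 61.8 kb. Transcript levels were not measured in these files.

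The comparison of SCAN1 with WT libraries called no gene of the set. Of the 37 genes, 17 had a mean coverage of at least 2% over the 5 libraries and entered limma's moderated test across 8472 protein-coding genes. The share called higher at an adjusted p of 0.05 was 0% of the 8472 and the share called lower was 0%. At an unadjusted p under 0.05, 164 of the 8472 genes were higher and 131 lower, and none of the 17 was among them. Of the 17, 8 were higher and 9 lower in SCAN1 libraries, with a median difference of -0.40 percentage points, beside 4361 higher, 4111 lower and a median of 0.08 over all genes tested.

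Libraries did not overlap between the genotypes for 2 of the 17 genes, NOP56 and CNBP, both higher in SCAN1, and for no gene in the lower direction. Over all 8472 genes the shares were 9.48% higher and 6.86% lower, so 2 of 17 is near the background. NOP56 averaged 90.9% ± 3.09 in SCAN1 libraries (SD, n = 3) and 85.1% ± 1.06 in WT libraries (SD, n = 2), a limma difference of 5.79 ± 3.53 percentage points (SE). CNBP averaged 21.8% ± 2.21 in SCAN1 libraries and 18.3% ± 1.17 in WT libraries, a difference of 3.45 ± 4.63. The adjusted p of limma was 1 for both genes. With the lists as deposited the difference of CNBP was 0.30 and its groups overlap. With no 1 kb added to the gene, the difference of NOP56 was 3.70 and its groups overlap. Neither difference is larger than the model's estimate of the spread between libraries allows to be called.

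Among the other 6 of the 8 most covered genes, AFG3L2 averaged 20.3% ± 8.49 in SCAN1 libraries and 11.6% ± 4.23 in WT libraries. Its difference of 8.69 ± 6.16 percentage points (SE) was the highest of the 17, with an unadjusted limma p of 0.214 and an adjusted p of 1. CSTB differed by 2.11 ± 12.7, PABPN1 by -2.85 ± 8.36, DMPK by -3.10 ± 10.1, STUB1 by -4.19 ± 10.3 and ATN1 by -5.73 ± 11.8 percentage points (SE), each with an adjusted p of 1 in limma. The difference of CSTB was 12.8 with the lists as deposited. In these 5 genes the standard error was above the size of the difference. Each of these 5 differences turned sign when a single library was left out. Without WT replicate 1 the difference was 10.7 for ATN1, 6.22 for STUB1 and 1.73 for DMPK. Without WT replicate 2 it was 8.61 for PABPN1 and -3.72 for CSTB, and without SCAN1#1 replicate 1 it was -9.02 for CSTB. DMPK was also above 0 without SCAN1#1 replicate 2 (0.54) or SCAN1#2 replicate 2 (1.47). Leaving out either library of experiment 1, or WT replicate 2, also leaves that experiment with a single genotype. In this fit, which ignores the pairing, differences of the size of the standard errors could not be called with 5 libraries. With the experiment as a block, limma gave -0.51 ± 3.36 for STUB1, -1.93 ± 6.32 for ATN1 and -0.06 ± 5.59 for DMPK (SE). It gave -5.17 ± 5.56 for PABPN1 and 6.13 ± 8.02 for CSTB. Each standard error was smaller than without the block and still above the size of the difference.

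**Figure D5:**
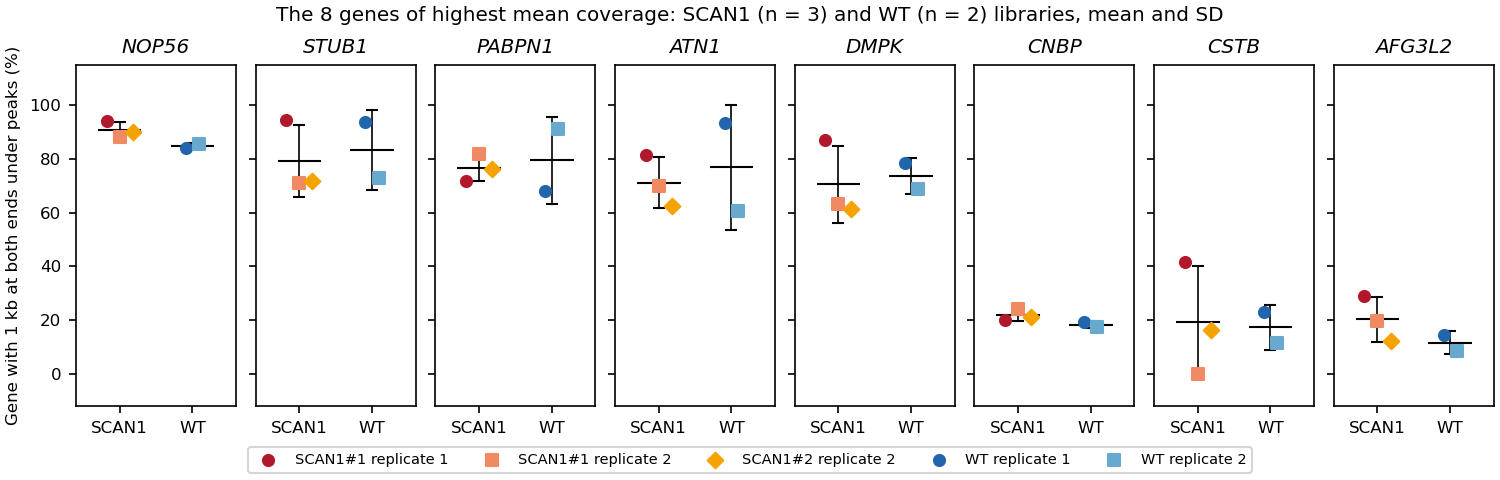
Percent of the gene under peaks in the SCAN1 libraries (left in each panel) and the WT libraries (right) for the 8 genes of highest mean coverage, with points for libraries, horizontal lines for the mean and bars for the SD. NOP56 and CNBP are the panels in which all SCAN1 points lie above both WT points, and the ranges overlap in the other 6.

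When only the windows of 1 kb around both gene ends were counted, 21 of the genes reached the 2% minimum. Of these, 14 were higher and 7 lower in SCAN1 libraries, with a median difference of 3.80 percentage points, beside 5342 higher, 3963 lower and a median of 1.26 over all 9305 genes tested. AFG3L2 had a difference of 15.8 ± 5.39 percentage points at its ends, with an unadjusted limma p of 0.0336 and an adjusted p of 0.946. It was the only 1 of the 21 at an unadjusted p under 0.05, beside 265 higher and 146 lower genes over all tested. Of its 2 ends, the gene end had a peak only in SCAN1#1 replicate 1 and WT replicate 1, from the region that runs over TUBB6. ATXN7 differed by 10.7 ± 4.78 and DIP2B by 9.50 ± 4.07, with adjusted p of 0.946 in limma for both. In the other direction JPH3 differed by -10.95 ± 13.0 and STUB1 by -4.60 ± 11.5, and ATXN10, by -0.52 ± 4.56, had all SCAN1 values below both WT values. In AFG3L2, ATXN7 and DIP2B all SCAN1 values lay above both WT values. Libraries of the genotypes thus did not overlap in 3 genes higher and 1 lower of the 21, beside 981 higher and 492 lower of the 9305. No gene of the set passed the threshold.

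The peak regions of the 37 genes, merged over the libraries, numbered 282. Of these, 42 had a peak in all 5 libraries (14.9%, against 12.6% of 130790 regions genome-wide) and 117 had one in a single library (41.5%, against 44.1%). A single region had peaks in the 3 SCAN1 libraries only (0.355%, against 0.966%), the one upstream of AFG3L2. Another 6 had peaks in the 2 WT libraries only (2.13%, against 1.63%), 2 in AFF3 and 1 each in ATXN1, TTBK2, ITPR1 and ANO10. In the lists as deposited SCAN1#1 replicate 2 also had a peak in 3 of these 6, in AFF3, ITPR1 and ANO10.

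Other genes of the field were read from 2 further lists. Of 26 other repeat expansion genes, 14 had a peak in all 5 libraries and 7 had none. The most covered were GIPC1 at a mean of 16.0%, THAP11 at 9.49% and RILPL1 at 8.54%. Of 29 other ataxia genes, 20 had a peak in all 5 libraries. Among them the translation factor gene EEF2 had a mean of 85.4%. In limma 7 and 14 genes of these lists were tested and none was called. TDP1 itself had a mean of 0.14%, with a peak only in SCAN1#1 replicate 1.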

How the data were processed

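DRIP-seq peak lists of 5 libraries (3 SCAN1, 2 WT) were used. The 5 input samples are not analysed here. Per the submitters' processing notes, the tools were MACS3 3.0.0a6, deepTools 3.5.1, BWA 0.7.17-r1188, FastQC 0.11.5 and SAMtools 1.9, on hg38, with no roles, options or control stated. Each list is in the narrowPeak layout, called per library. The deposited values are a score, the fold enrichment of the peak as a ratio over the caller's background, its -log10 p and -log10 q, and the offset of its summit. Sequencing depth is unknown, so no counting interval was computed.

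From the lists were computed the percent of each gene (RefSeq, GRCh38.p14, 1 kb added at both ends) under the 63456 strongest peaks of each library, peaks within 1 kb of starts and ends, and regions merged over libraries. Strand came from the RefSeq promoter table, which holds 28 of the 37 genes, and the other 9 are described by coordinate end. Where the mean over libraries reached 2%, protein-coding genes entered limma 3.58.1 in R 4.3.3 (lmFit, then eBayes with a trend, Benjamini-Hochberg adjusted p under 0.05 called), both SCAN1 lines as one group, after the script was tested on simulated data. Python 3.11.15, numpy 2.4.6, pandas 2.3.3 and matplotlib 3.10.9 were used. Estimates are given for tested genes whose groups do not overlap and for the 8 of highest mean coverage, and values per library for those with a mean of at least 2%. The genes, lists and tests were chosen with earlier results of these data known. Some genes of the further lists are not reported here.

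Per the labels, a replicate number marks a shared experiment, so libraries of the same number are paired. Across genes, their deviations from group means had correlations of 0.612 for SCAN1#1 and WT in experiment 1, 0.325 for SCAN1#1 and WT in experiment 2 and 0.470 for SCAN1#2 and WT in experiment 2. Deviations from a group mean cancel out within each genotype, so these correlations are not independent of one another. Alternatives were the experiment as a block, lists as deposited, log2(percent + 1), other filters, flanks and peak thresholds, gene ends only, and each library left out.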

Additional observations from a re-analysis of the deposited data

Results flagged for a closer look

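In ATXN7 and COQ8A the 2 SCAN1 lines lay on opposite sides of WT of the same experiment. ATXN7 coverage in SCAN1#1 minus WT was 2.15 percentage points in experiment 1 and 0.49 in experiment 2, and SCAN1#2 minus WT was -1.33 in experiment 2. For COQ8A these differences were 4.32, 1.59 and -1.56 percentage points. The comparisons in experiment 2 share WT replicate 2, SCAN1#2 has 1 library, and the difference between the lines was not tested.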

How the results depend on the processing

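No gene of the set was called under any of the 8 alternative settings or with any of the 5 libraries left out. Over all genes no call was made either, except on the log2(percent + 1) scale, with 4 calls, none of them in the set. With the experiment as a replicate block, 0 genes were called, and the lowest adjusted p in limma among the tested genes of the set was 0.751. At an unadjusted p under 0.05 this fit had 298 higher and 220 lower genes over all 8472 tested, none of them in the set. The blocked fit changed no call. Of 104 recomputed differences of the 8 most covered genes, 92 kept their sign and 12 turned it. DMPK was 0.80 with the lists as deposited and 11.8 at gene ends only, ATN1 5.48 at gene ends only, and CSTB -0.93 on the log2 scale, and the cause was not tested. With each library left out in turn, the difference ran from -11.3 to 1.73 for DMPK, -22.1 to 10.7 for ATN1, -14.6 to 6.22 for STUB1, -9.02 to 11.8 for CSTB and -14.3 to 8.61 for PABPN1. It kept its sign for AFG3L2 (4.30 to 12.8), CNBP (2.21 to 4.34) and NOP56 (4.08 to 7.10). CNBP was 0.30 and CSTB 12.8 with the lists as deposited. When at least 50% of a peak had to lie in the window, 7 genes in place of 11 had a start peak and 1 in place of 4 an end peak in all 5 libraries. With any listed RefSeq start in a 300-base window, an alternative chosen after seeing the data, 7 had one. The median coverage was 2.02% with the lists as deposited, against 1.42%. Sequencing depth is unknown, which limits what a missing peak can show.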
